A study of Gallus gallus with 14 samples.

Results

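The lncRNAs of chromosome 16, the chromosome that carries the chicken major histocompatibility complex (MHC), were taken as all transcripts of the deposited lncRNA table that lie on chromosome 16 of the genome build Galgal4. There were 17 of them among the 9977 lncRNAs measured, 6 known from the NONCODE catalogue and 11 unknown ones assembled from these libraries. They were measured by total RNA sequencing in the uterovaginal junction (UVJ), the part of the hen's oviduct whose tubules store sperm. Libraries came from 7 long-DF hens, which had a long duration of fertility after a single insemination, and 7 short-DF hens, in which it was short. All were untreated egg-type hens from a single farm, kept in individual cages on the same diet and light cycle and inseminated alike, and their exact age at sampling and genetic line are not given in the sources used here. Each library was made from 1 hen. The hen names also carry a prefix, JH or JF, whose meaning the sources used here do not give, and 4 JH and 3 JF hens made up each fertility group. The table holds no mRNA, so the tissue could not be checked against marker genes.

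In chickens the MHC lies on a microchromosome in the genetically distinct MHC-B and MHC-Y regions, together with the ribosomal RNA genes of the nucleolar organizer. MHC-B is compact and holds the classical class I and class II genes beside the TAP transporters and tapasin, which load peptides for display to T cells, and both regions are known for wide variation in sequence and gene content between chicken lines. lncRNAs are transcripts without a long open reading frame, and some of them act on the expression of neighbouring genes. The MHC label was checked on names alone. Of 39 names of chicken MHC genes and their neighbours looked up, 33 stood on chromosome 16 of the current RefSeq gene table, which is of the later build GRCg7b and lists 331 genes there, 16 of them with symbols of the MHC-Y family. Because the builds differ, no distance between a lncRNA and an MHC gene is given.

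The 17 lncRNAs fell into 9 separate loci between positions 49666 and 528108 of chromosome 16. The 4 loci nearest the start were NONGGAT002994.2 (positions 49666 to 50226), MSTRG.7438.1 (103389 to 104370), NONGGAT002995.2 (117761 to 119286) and the 3 overlapping transcripts of the assembled gene MSTRG.7450, all on the minus strand between 134733 and 139222. Next came MSTRG.7447.1 (230043 to 230374) and, 0.393 kb further on, a locus of 3 known lncRNAs whose spans overlap, NONGGAT003017.2 (230768 to 254906), NONGGAT003015.2 (235504 to 273240) and NONGGAT003016.2 (261197 to 268788). NONGGAT003012.2 (291653 to 291984) preceded by 4.73 kb a locus of 5 transcripts on the plus strand between 296713 and 338338. The last, MSTRG.7499.2, lay alone at 527623 to 528108. Of the 11 unknown transcripts, the deposited annotation classed 6 as intergenic, 3 as overlapping an exon of a reference gene on the opposite strand and 2 as lying within an intron of a reference gene, while 71.4% of all unknown lncRNAs were intergenic and 6.60% lay within an intron. The 3 antisense transcripts, MSTRG.7525.1, MSTRG.7525.2 and MSTRG.7525.3, and the intronic MSTRG.7526.1 were all assigned to the gene ENSGALG00000013101. MSTRG.7526.1 lies on the same strand as the other 3, opposite to that gene, and the study lists it as both intronic and antisense. The intronic MSTRG.7527.1 was assigned to ENSGALG00000026142. Neither identifier is in the RefSeq table, so no name or role is given to these genes.

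Compared with all lncRNAs measured, those of chromosome 16 included more unknown transcripts (64.7% against 25.8%) and were shorter, with a median length of 348 nt (208 to 1509 nt) against 654 nt. Their median level was higher, 1.74 FPKM (fragment counts scaled by transcript length and library total, averaged over the 14 hens) against 0.540 FPKM. The 6 known ones averaged 0.047 to 1.86 FPKM and the 11 unknown ones 0.199 to 7.42 FPKM. Known and unknown lncRNAs were not compared with the whole table separately. At least 1 fragment was counted in every hen for 8 of the 17 (47.1%), against 39.3% of all lncRNAs. These are descriptions of a set of 17 without a test. Between 213304 and 281892 fragments per hen were counted on lncRNAs, and 14 of the 17 passed the filter for testing, 0.1 FPKM or more in no fewer than 7 hens (82.4%, against 69.0% of all lncRNAs). The 3 that did not pass were NONGGAT002995.2, with 5 fragments in 14 hens together, MSTRG.7447.1, with 4, and MSTRG.7525.3, with 20.

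The 6 most abundant lncRNAs of the chromosome lay in 4 of the 9 loci. MSTRG.7450.8, an intergenic transcript of 6 exons and 366 nt, averaged 7.42 ± 2.92 FPKM (SD, n = 14 hens). MSTRG.7525.1 averaged 7.37 ± 8.87 FPKM, an SD above its mean. MSTRG.7438.1, an intergenic transcript of 2 exons, averaged 7.24 ± 3.34 FPKM, MSTRG.7450.5 averaged 5.45 ± 1.62 FPKM, MSTRG.7499.2 averaged 4.04 ± 1.13 FPKM, and MSTRG.7526.1 averaged 3.83 ± 5.13 FPKM. The neighbours in this order down to MSTRG.7526.1 differed by less than the spread between hens. MSTRG.7450.5 and MSTRG.7450.8 share 333 nt of exons, 91.0% of the shorter one, so the division of fragments between them depends on how shared sequence was assigned, which the sources used here do not give.

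**Figure D1:**
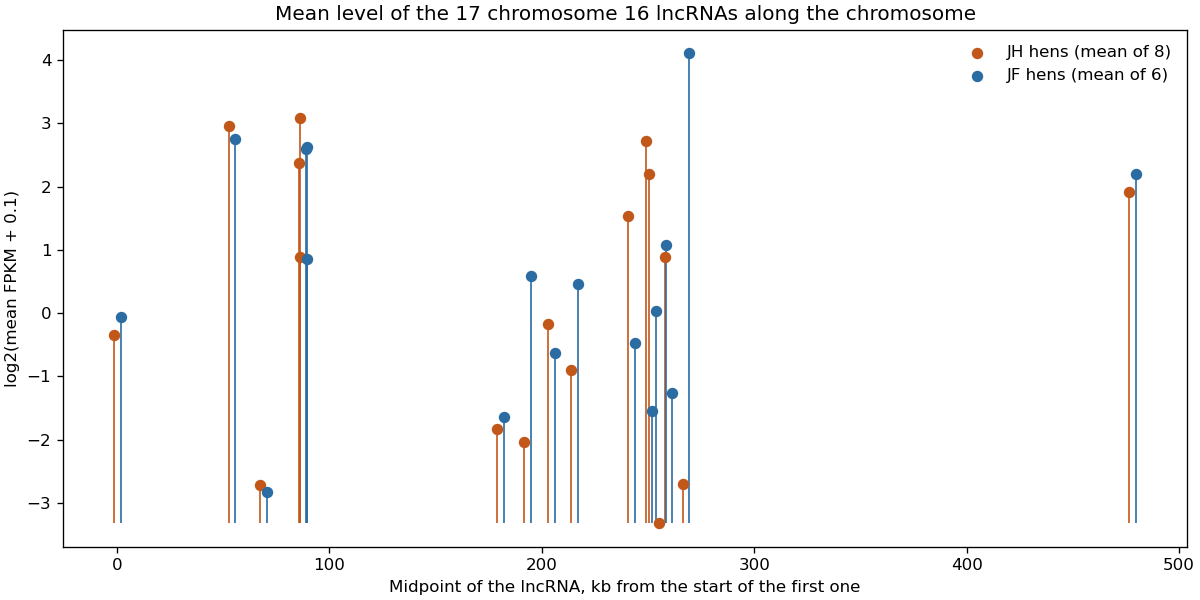
Mean FPKM of each of the 17 lncRNAs, on a log2 scale after adding 0.1, in the 8 JH hens (orange, drawn slightly to the left) and the 6 JF hens (blue), against the midpoint of the lncRNA in kb from the start of the first one. The orange and blue points lie close together at the start and the end of the chromosome and apart in the stretch between, where MSTRG.7525.1 is at 17.1 FPKM in JF hens and at 0.0539 FPKM in JH hens.

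The calls at this chromosome lay between the prefixes. MSTRG.7525.1 was present in every JF hen and almost unseen in JH hens, the intronic MSTRG.7526.1 was higher in JH hens, and NONGGAT003017.2 was higher in JF hens. In the comparison of JH with JF hens, 3 of the 14 chromosome 16 lncRNAs tested were called, against 2.74% of all 6887 lncRNAs tested. To be called, a lncRNA needed an adjusted p up to 0.05, an unadjusted p up to 0.01 and a log2 fold change of 2 or more in size, in the quasi-likelihood test of edgeR with the fertility group as a covariate. Of the 3 calls, 1 was higher in JH hens (background 1.58%) and 2 were lower in JH hens (background 1.16%). The filter of 7 hens can be met by the 8 JH hens alone but not by the 6 JF hens alone. A lncRNA seen only in JF hens was therefore never tested, which bears on every background given by direction. Among chromosomes with at least 10 lncRNAs tested, chromosome 16 had the highest share of calls, 21.4%, and chromosome 27 the next, 5 of 82 (6.10%). MSTRG.7525.1 and NONGGAT003017.2 passed the filter mainly through the JF hens, in which they were high. This order of chromosomes is therefore a description without a test. The 3 calls lay in 2 loci of transcripts with overlapping spans, and with counts summed over each locus 0 of 7 loci of chromosome 16 were called, against 148 of 5262 over the table. At an unadjusted p under 0.05, 7 of the 14 differed, against 19.6% of all lncRNAs. At an adjusted p up to 0.05 alone, without the fold threshold, 4 of the 14 passed, against 6.94%. The median log2 fold change of the 14 was 0.01, beside 0.02 over all lncRNAs tested. The prefix cannot be told apart from anything else in which the hens so named differ. In a bulk sample, fewer cells of a type and less RNA per cell cannot be told apart either.

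**Figure D2:**
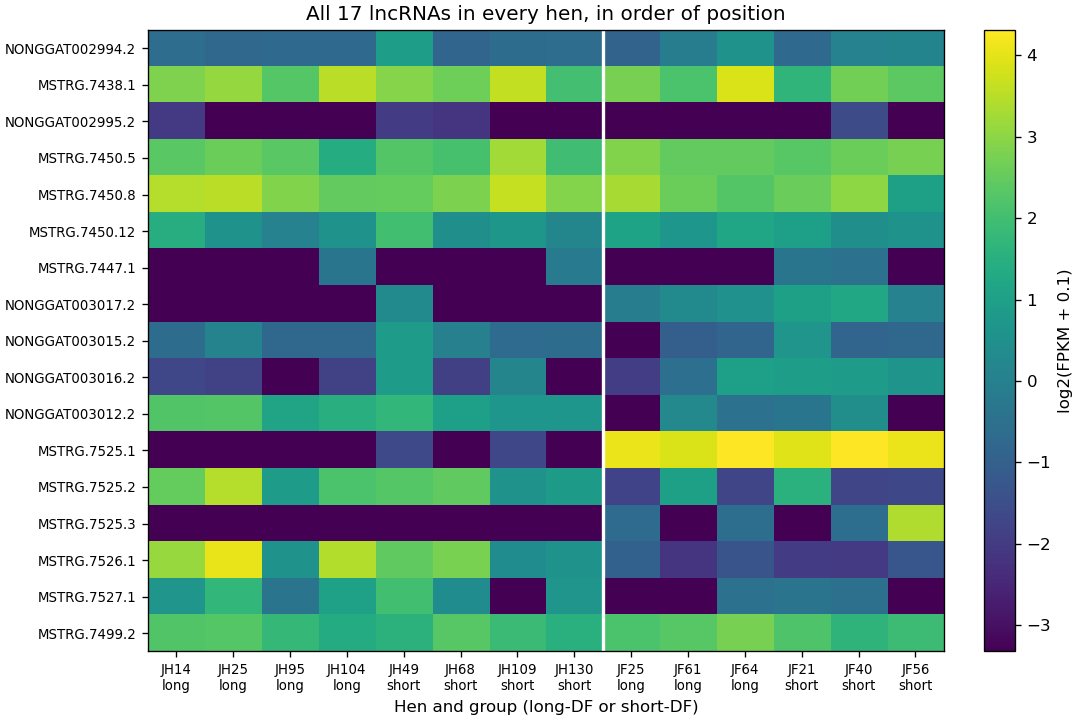
Level of each of the 17 lncRNAs (rows, in order of position) in each of the 14 hens (columns), as log2(FPKM + 0.1). The white line separates the 8 JH hens on its left from the 6 JF hens on its right, and the row of MSTRG.7525.1 is dark on the left, with 0.224 FPKM or less in every JH hen, and bright on the right, with 14.6 FPKM or more in every JF hen.

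MSTRG.7525.1 is a transcript of 2 exons, 619 and 139 nt long, separated by an intron of 40868 nt that takes it from 296713 to 338338. In JH hens its lowest, median and highest levels were 0, 0 and 0.224 FPKM, and in JF hens they were 14.6, 16.9 and 19.8 FPKM. The prefixes did not overlap: 6 of the 8 JH hens had no fragment and the other 2, JH49 and JH109, had 1 each, while the 6 JF hens had 80 to 113. Its log2 fold change of JH over JF was -7.99 (SE 0.42, adjusted p = 7.79e-08 in edgeR), which was rank 2 of the 6887 lncRNAs by p, and the two-sided exact permutation test over the 3003 splits of the hens gave p = 0.000333, the smallest it can give. Because so few fragments were seen in JH hens, the fitted fold change depends on the prior count of the model. Its SE of 0.42, derived from the F statistic, is smaller than counting error alone allows. DESeq2 gave a log2 fold change of -8.26 with a larger SE of 0.74. In fragments, JF hens had 592 and JH hens 2, a ratio of 380 for JF over JH after scaling for depth (95% exact interval 105 to 3147, counting error only). Where no fragment was counted, up to 3 may have been missed, which for this transcript is 0.523 to 0.637 FPKM in the 6 JH hens without one. This limit and the interval take fragments as they were assigned. MSTRG.7525.2 shares 81.3% of the exon sequence of MSTRG.7525.1, and how shared fragments were divided is not covered. MSTRG.7525.1 passed the filter through the 6 JF hens and the 2 JH hens with 1 fragment each, so its presence among the tested lncRNAs rests on the group in which it was high. It was called within long-DF hens alone (adjusted p = 0.00635 in edgeR, against 0.494% of all lncRNAs called) and within short-DF hens alone (adjusted p = 0.00170, against 1.10%). Both runs use parts of the same hens, so these calls are not separate support.

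MSTRG.7525.2 starts 3 bases after MSTRG.7525.1 and shares 616 nt of exon with it, 93.2% of its own length and 81.3% of that of MSTRG.7525.1. The difference lies downstream, where MSTRG.7525.2 joins its first exon of 634 nt to one of 27 nt across an intron of 9455 nt. MSTRG.7525.3 uses part of the same first exon, with 191 nt, and an exon of 40 nt beyond an intron of 18268 nt. Fragments from the shared first exon do not by themselves tell these transcripts apart.

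**Figure D3:**
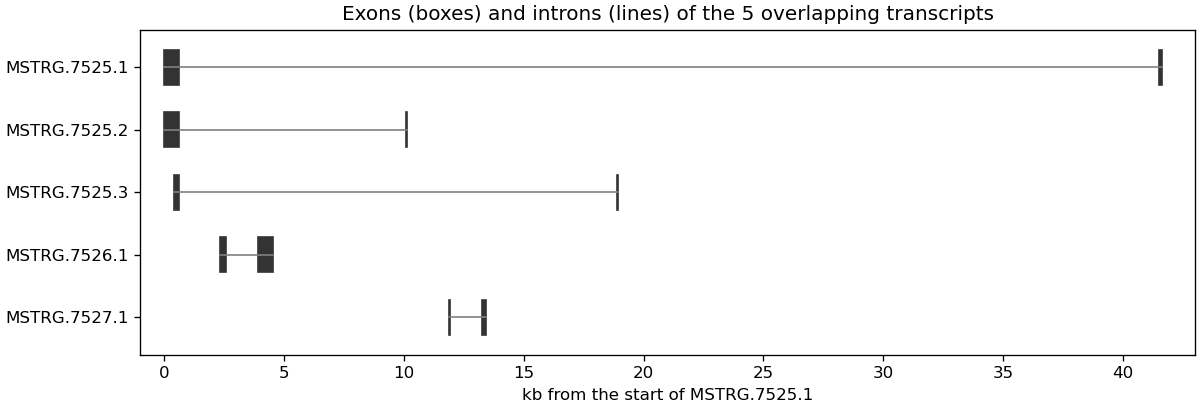
Exons (boxes) and introns (lines) of the 5 plus-strand transcripts of the locus that starts at MSTRG.7525.1, to scale, in kb from its start. The 3 MSTRG.7525 transcripts share their first exon and differ in their second, and MSTRG.7526.1 lies within the introns of all 3.

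The fold change of MSTRG.7525.2 had the opposite sign. Its lowest, median and highest levels were 1.43, 4.60 and 11.0 FPKM in JH hens, against 0.189, 0.208 and 2.82 FPKM in JF hens. In 4 of the 6 JF hens it had 1 fragment, while JF61 and JF21 had 11 and 13 and so overlapped the lowest JH hens, which had 6, 7 and 8. JH over JF came to a log2 fold change of 2.05 (SE 0.67), which did not pass the test (adjusted p = 0.0868 in edgeR), while DESeq2 called it (2.08, adjusted p = 0.0395) and so did limma with 0.1 added to the FPKM (2.63, adjusted p = 0.0216). MSTRG.7525.3 had no fragment in any JH hen. In JF hens it had 17 fragments in JF56, 1 each in 3 others and none in 2.

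Set side by side within the assembled gene MSTRG.7525, the transcripts took different shares in the hens of each prefix. MSTRG.7525.1 made up 0% to 14.3% of the fragments of the gene in JH hens, against 83.3% to 98.3% in JF hens. The highest JH share came from JH109, with 1 of 7 fragments (95% Wilson interval 2.57% to 51.3%). MSTRG.7525.2 made up 85.7% to 100% in JH hens, against 0.870% to 14% in JF hens. The shares of neither transcript overlapped between the prefixes. Both are parts of the same total, so these are not separate results, and shares within other genes were not computed. The gene as a whole was also lower in JH hens: the summed level of the 3 transcripts was 4.57 ± 3.13 FPKM in the 8 JH hens and 20.1 ± 3.89 FPKM in the 6 JF hens (SD), with 7 to 52 fragments in JH hens against 93 to 115 in JF hens. With counts summed per assembled gene, an alternative chosen after seeing the data, MSTRG.7525 had a log2 fold change of JH over JF of -2.36 (SE 0.33, adjusted p = 0.000424 in edgeR), and 3 of 11 genes of the chromosome were called, against 2.72% of all. Whether the counting used the strand of the reads is not given in the sources used here. Fragments of the reference gene on the opposite strand may thus be included, here and in MSTRG.7526.1.

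**Figure D4:**
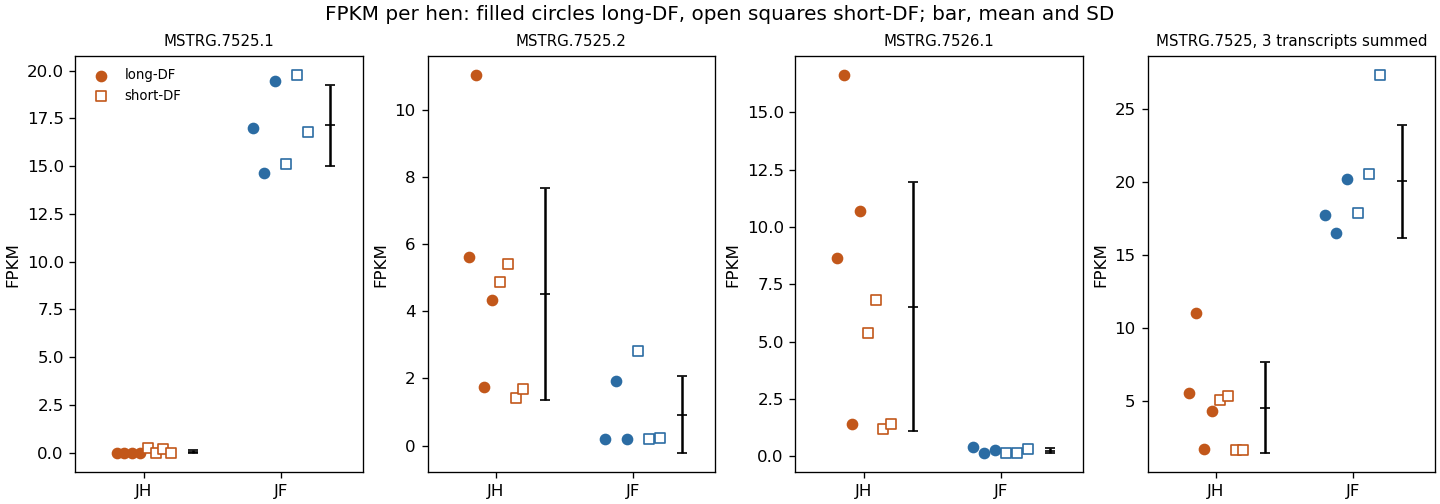
FPKM in each hen for MSTRG.7525.1, MSTRG.7525.2, MSTRG.7526.1 and the sum of the 3 MSTRG.7525 transcripts, with JH hens on the left (orange) and JF hens on the right (blue) of each panel. Filled circles are long-DF hens, open squares are short-DF hens, and the bar beside each prefix is the mean and SD over 8 JH or 6 JF hens. The prefixes separate fully for MSTRG.7525.1, MSTRG.7526.1 and the sum, and overlap for MSTRG.7525.2.

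MSTRG.7526.1, of 2 exons and 911 nt, lies at 299035 to 301256 within the introns of the MSTRG.7525 transcripts and on the same strand. Its lowest, median and highest levels were 1.21, 6.10 and 16.6 FPKM in JH hens, against 0.127, 0.226 and 0.412 FPKM in JF hens. The prefixes did not overlap, and the 7 to 108 fragments in JH hens stood against 1 to 3 in JF hens. JH over JF gave a log2 fold change of 4.45 (SE 0.64, adjusted p = 0.000737 in edgeR, exact permutation p = 0.000999). Within long-DF hens alone the fold change was 4.82 with an adjusted p of 0.0720 in edgeR, and within short-DF hens alone 3.97 with an adjusted p of 0.0663. Neither passed the test. The lack of overlap over all hens holds in each group by necessity and adds nothing to these values.

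Among JH hens, MSTRG.7526.1 and MSTRG.7525.2 were high and low in the same hens. JH25 was highest for both, with 108 and 52 fragments, and JH95, JH109 and JH130 were the 3 lowest for both, with 7 to 9 and 6 to 8 fragments. The ratio of their FPKM ranged between 0.816 and 2.47 over the 8 JH hens. JF61 and JF21 lay far below this range, at 0.066 and 0.056, with 11 and 13 fragments of MSTRG.7525.2 and 1 each of MSTRG.7526.1. JF40 lay just below it, at 0.726, with 1 fragment of each transcript. In the remaining JF hens both transcripts had 1 to 3 fragments. The intronic MSTRG.7527.1, of 217 nt at 308599 to 310147, had 0 to 5 fragments in JH hens, against 0 or 1 in JF hens. Its 20 fragments over JH hens against 3 over JF hens give a ratio of 5.19 after scaling for depth (95% exact interval 1.54 to 27.3, counting error only), and its log2 fold change of 2.13 (SE 0.71) did not pass the test (adjusted p = 0.0931 in edgeR).

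Upstream of this locus, 3 of the 4 known lncRNAs between 230768 and 291984 had an unadjusted p under 0.05 between the prefixes, against 19.6% of all lncRNAs, in a stretch picked with these values known. NONGGAT003017.2, which spans 24139 bases with 298 nt of exons, was listed at 0 in 7 of 8 JH hens, and JH49 had 1.14 FPKM from 2 fragments, while the lowest, median and highest levels of JF hens were 0.840, 1.26 and 2.23 FPKM. The prefixes overlapped through JH49 alone. The log2 fold change of JH over JF was -3.08 (SE 0.60, adjusted p = 0.00639 in edgeR, exact permutation p = 0.000999). NONGGAT003017.2 was described for its small p between the prefixes, so the permutation test is not separate support. Without JH49 no JH hen had a fragment, and the -4.66 fitted then depends on the prior count of the model. Only the 6 JF hens would then meet the filter level, short of the 7 asked for. The fold change over all hens rests on 2 fragments over JH hens and 19 over JF hens. This is a ratio of 12.2 for JF over JH (95% exact interval 2.94 to 108, counting error only). The derived SE of 0.60 is smaller than counting error alone allows, and DESeq2 gave -3.27 (SE 0.95). NONGGAT003017.2 passed the filter through the 6 JF hens and JH49. Within long-DF hens alone it was not called (adjusted p = 0.108 in edgeR), nor within short-DF hens alone (adjusted p = 0.256).

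NONGGAT003012.2, of 209 nt, had lowest, median and highest levels of 1.51, 2.41 and 4.70 FPKM in JH hens, against 0, 0.664 and 1.27 FPKM in JF hens. The prefixes did not overlap in FPKM, but in fragments they touched, with 2 to 7 in JH hens and 0 to 2 in JF hens. Its log2 fold change of 1.88 (SE 0.45) had an adjusted p of 0.0225 in edgeR, but missed the fold threshold and was not called. The exact permutation p was 0.000333, the smallest possible, on FPKM, where library totals part hens with 2 fragments each. NONGGAT003012.2 was described for its small p between the prefixes, so the permutation test is not separate support. NONGGAT003016.2, of 776 nt, had 0 to 8 fragments in JH hens, against 1 to 11 in JF hens, and its log2 fold change of -1.74 (SE 0.62) did not pass the test (adjusted p = 0.122 in edgeR). JH49 was again the highest JH hen, with 8 fragments.

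In FPKM, 2 of the 14 tested lncRNAs of the chromosome, MSTRG.7526.1 and NONGGAT003012.2, were higher in every JH hen than in any JF hen (background 2.18%), and 1, MSTRG.7525.1, was lower (background 1.35%). These 3 cannot overlap within the long-DF or the short-DF hens either, since each group is a part of the same hens. Within long-DF hens, with these 3 counted, 4 were higher in every JH hen (background 13.4%) and 2 lower (background 5.05%). Of the 4, NONGGAT003015.2 and MSTRG.7527.1 separated in FPKM only, since the lowest JH hen and the highest JF hen had 1 fragment each. Within short-DF hens only these 3 separated, 2 higher (background 8.92%) and 1 lower (background 6.36%). There and over all hens, NONGGAT003012.2 separated in FPKM only, since the lowest JH hen and the highest JF hen had 2 fragments each.

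The 7 lncRNAs with an unadjusted p under 0.05 lay in the 107.571 kb between 230768 and 338338. This stretch was chosen after their values were seen, and the following counts describe it without a test. It holds 9 of the 17 lncRNAs, and 8 of these were tested, with a median absolute log2 fold change of JH over JF of 2.09. The exception at an unadjusted p under 0.05 was NONGGAT003015.2, with 1 to 3 fragments in JH hens and 0 to 3 in JF hens, for which no fold change is given. The 8 lncRNAs outside held 6 that were tested, with a median absolute log2 fold change of 0.35. Among them were 4 of the 6 most abundant of the chromosome. MSTRG.7438.1 averaged 7.66 ± 2.90 FPKM in JH hens and 6.67 ± 4.06 FPKM in JF hens (SD, n = 8 and 6), and MSTRG.7450.8 averaged 8.42 ± 2.79 FPKM in JH hens and 6.07 ± 2.73 FPKM in JF hens. MSTRG.7450.5 averaged 5.09 ± 2.01 FPKM in JH hens and 5.94 ± 0.821 FPKM in JF hens, and MSTRG.7499.2 averaged 3.69 ± 0.989 FPKM in JH hens and 4.51 ± 1.21 FPKM in JF hens. The prefixes overlapped for each of these 4, and their smallest adjusted p was 0.359 in edgeR.

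**Figure D5:**
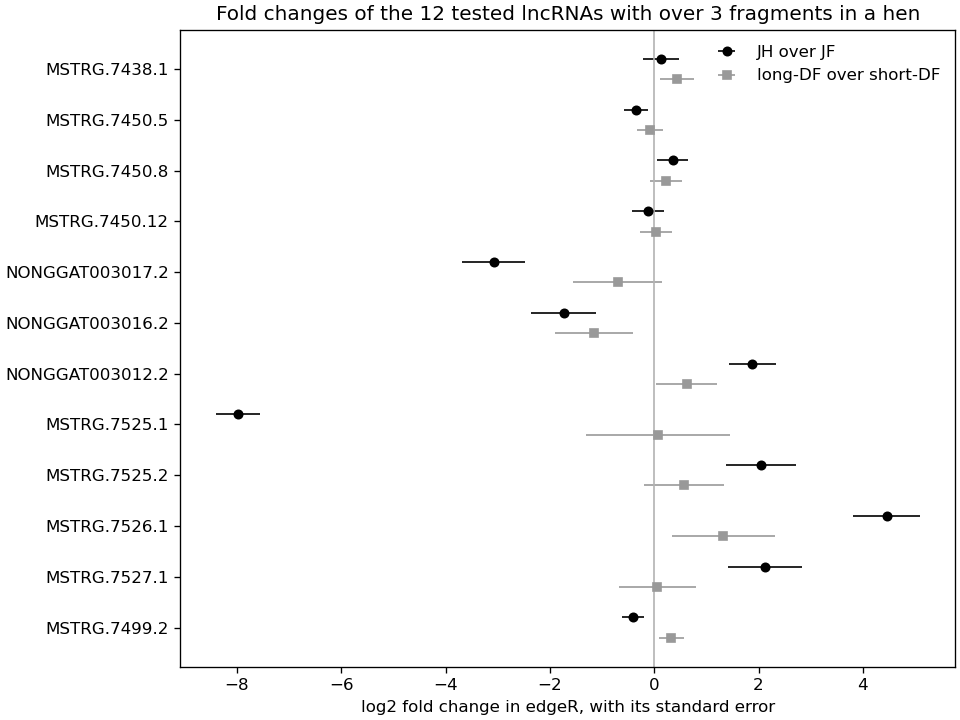
Log2 fold change in edgeR of the 12 tested lncRNAs with over 3 fragments in at least 1 hen, in order of position, for JH over JF hens (black circles) and long-DF over short-DF hens (grey squares), with the standard error derived from the F statistic as the bar. Where a lncRNA had few fragments, as MSTRG.7525.1 did in JH hens, the bar can be shorter than counting error alone. The 7 circles between NONGGAT003017.2 and MSTRG.7527.1 lie farthest from 0, between -7.99 for MSTRG.7525.1 and 4.45 for MSTRG.7526.1, and every grey square lies between -1.16 and 1.32.

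The comparison of long-DF with short-DF hens, the question of the study, called none of the 14 chromosome 16 lncRNAs tested, against 0% of all lncRNAs (0 of 6887 in edgeR). At an unadjusted p under 0.05 there were also 0 of the 14, against 2.13% of all (147 of 6887), while DESeq2 called 2 of all lncRNAs and none of chromosome 16. With the prefix as a covariate none was called, and 1 of the 14, MSTRG.7526.1, had an unadjusted p under 0.05 (0.0462, adjusted p = 0.990 in edgeR), against 193 of all 6887. The log2 fold changes of the 14 lay between -1.16 and 1.32, with 9 above 0 and 5 below, and their median was 0.06, beside -0.01 over all lncRNAs tested. The smallest adjusted p was 0.995. The study lists MSTRG.7525.1 and MSTRG.7526.1 as differentially expressed between the fertility groups, and neither was called here. The reason for this difference was not tested.

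The fertility groups overlapped for MSTRG.7525.1, which was listed at 0 in the 4 JH hens of the long-DF group and at 14.6 to 19.5 FPKM in its 3 JF hens, against 0 to 0.224 FPKM in the 4 JH hens of the short-DF group and 15.1 to 19.8 FPKM in its 3 JF hens. In each fertility group its level thus followed the prefix. Its mean was 7.30 ± 9.21 FPKM in long-DF hens and 7.44 ± 9.24 FPKM in short-DF hens (SD, n = 7 each), with a log2 fold change of 0.07 (SE 1.38, adjusted p = 0.996 in edgeR, exact permutation p = 0.662 over 3432 splits).

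MSTRG.7526.1 had the highest log2 fold change of long-DF over short-DF, 1.32 (SE 0.99, adjusted p = 0.995 in edgeR). Its lowest, median and highest levels were 0.127, 1.43 and 16.6 FPKM in long-DF hens, against 0.146, 1.21 and 6.81 FPKM in short-DF hens. The groups overlapped, and the highest 3 hens, JH25, JH104 and JH14, were long-DF hens. Without JH25 the log2 fold change was 0.79. The smallest unadjusted p, 0.140, was that of NONGGAT003016.2, at 0, 0.185 and 1.90 FPKM in long-DF hens, against 0, 1.45 and 1.85 FPKM in short-DF hens, with a log2 fold change of -1.16 (SE 0.75, adjusted p = 0.995). Without JF64, the highest hen, it was -2.16 (SE 0.71, unadjusted p = 0.00913, adjusted p = 0.999 in edgeR).

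Among the more abundant intergenic lncRNAs the fertility groups differed by less than the spread between hens. MSTRG.7499.2 averaged 4.44 ± 1.3 FPKM in long-DF hens and 3.64 ± 0.829 FPKM in short-DF hens (log2 fold change 0.33, SE 0.24). MSTRG.7438.1 averaged 8.16 ± 3.68 FPKM in long-DF hens and 6.31 ± 2.92 FPKM in short-DF hens (log2 fold change 0.44, SE 0.33). For MSTRG.7450.8 the means were 7.97 ± 2.78 FPKM in long-DF hens and 6.87 ± 3.16 FPKM in short-DF hens (log2 fold change 0.22, SE 0.31), and for MSTRG.7450.5 they were 5.24 ± 1.38 FPKM in long-DF hens and 5.67 ± 1.91 FPKM in short-DF hens (log2 fold change -0.08, SE 0.24). All 4 were counted in every hen, and the groups overlapped for each. NONGGAT003015.2 had 0 to 2 fragments in long-DF hens and 1 to 3 in short-DF hens, too few for a fold change.

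Within a prefix the fertility groups did not separate either. Within JH hens, 0 of the 14 were called, against 0.0145% of all lncRNAs (1 of 6887), and 0 had an unadjusted p under 0.05, against 3.89%. MSTRG.7526.1 was at 1.43 to 16.6 FPKM in the 4 long-DF JH hens and at 1.21 to 6.81 FPKM in the 4 short-DF JH hens, a log2 fold change of 1.37 (SE 0.72, adjusted p = 0.992 in edgeR). NONGGAT003016.2 had 0 or 1 fragment in each long-DF JH hen and 8, 1, 5 and 0 in the short-DF JH hens, with a log2 fold change of -2.10 (SE 1.06) and the smallest unadjusted p, 0.0787. Without JH49 it was -1.30. MSTRG.7525.1, the other lncRNA with a small p and a negative sign there (unadjusted p = 0.106 in edgeR), had no fragment in long-DF JH hens and 1, 0, 1 and 0 in short-DF JH hens, too few for a fold change. NONGGAT003012.2 was at 2.08 to 4.70 FPKM in long-DF JH hens and at 1.51 to 3.24 FPKM in short-DF JH hens, with a log2 fold change of 0.78 (SE 0.36). Each of these 4 overlapped between the fertility groups.

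Within JF hens, 0 of the 14 were called, against 0.0581% of all lncRNAs (4 of 6887), and 0 had an unadjusted p under 0.05, against 3.62%. MSTRG.7438.1 was at 6.56, 4.34 and 14.5 FPKM in the 3 long-DF JF hens and at 3.10, 6.35 and 5.15 FPKM in the 3 short-DF JF hens, a log2 fold change of 0.91 (SE 0.50, adjusted p = 0.993 in edgeR). MSTRG.7499.2 was at 4.31, 4.98 and 6.56 FPKM in long-DF JF hens and at 4.53, 3.05 and 3.65 FPKM in short-DF JF hens, with a log2 fold change of 0.59 (SE 0.33). Without JF64 these became 0.24 for MSTRG.7438.1 and 0.37 for MSTRG.7499.2. Of the negative side, NONGGAT003016.2 had 1, 4 and 11 fragments in long-DF JF hens, against 10, 10 and 8 in short-DF JF hens. Its log2 fold change was -0.81 (SE 0.71, adjusted p = 0.993 in edgeR), -1.997 without JF64 and -0.34 without JF25. NONGGAT003015.2 had 0, 1 and 1 fragment in long-DF JF hens, against 3, 1 and 1 in short-DF JF hens, too few for a fold change (unadjusted p = 0.229 in edgeR). All 4 overlapped between the groups, and an exact permutation test of 3 against 3 hens cannot give a p below 0.1. MSTRG.7525.1, high in all JF hens, had a log2 fold change of 0.09 (SE 0.18) there. The test of whether the effect of the fertility group differed between the prefixes called 0 of the 14, against 0% of all lncRNAs, and its smallest unadjusted p among them was 0.0866, against 4.49% of all lncRNAs under 0.05.

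Summed over the 17 lncRNAs, the level was 49.7 ± 13.1 FPKM in long-DF hens and 44.5 ± 8.76 FPKM in short-DF hens, a difference of 5.18, and 44.5 ± 13.6 FPKM in JH hens and 50.5 ± 6.03 FPKM in JF hens, a difference of -5.96. Both differences were within 1 SD of the hens, and single hens moved them. Without JH25 they were 1.89 and -9.51, without JH130 2.26 and -3.45, without JH95 8.76 and -3.62, and without JF64 3.39 and -3.97. Between 11 and 15 of the 17 had a fragment in a given JH hen, against 12 to 17 in a given JF hen, and JF40 was the hen in which all 17 were seen.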

How the data were processed

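UVJ RNA of 14 hens was sequenced as 1 library per hen by Illumina sequencing. The authors mapped reads to Galgal4 with TopHat, assembled transcripts with StringTie, matched these to gene annotations with Gffcompare, and kept lncRNAs by filters on coding potential, open reading frame, FPKM, exons and length. They deposited a raw fragment count per lncRNA and hen, not normalized, and the FPKM, which the authors scaled by transcript length and library total. A deposited annotation gave the exons and class of unknown lncRNAs. The counting tool is not given in the sources used here.

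Here, lncRNAs at 0.1 FPKM or more in no fewer than 7 hens (6887 of 9977) were tested with edgeR 4.0.16 (R 4.3.3), TMM scaling and the quasi-likelihood F test, with Benjamini-Hochberg adjustment over all of them. Calls needed an adjusted p up to 0.05, an unadjusted p up to 0.01 and a log2 fold change of 2 or more in size (for the difference between prefixes in the effect of the group, the adjusted p alone). Standard errors were derived as the size of the log2 fold change over the root of the F statistic. For lncRNAs with few fragments in a group they can be smaller than counting error alone. Between the prefixes this holds, among others, for MSTRG.7525.1, NONGGAT003017.2, NONGGAT003012.2, MSTRG.7527.1, MSTRG.7450.12 and MSTRG.7499.2. It also occurs within a prefix, as for NONGGAT003012.2 between the fertility groups of JH hens and MSTRG.7499.2 between those of JF hens. Single lncRNAs were compared by two-sided exact permutation tests on log2(FPKM + 0.1), computed for 10 of them in 4 contrasts, with unadjusted p. Precision depended on the 213304 to 281892 fragments per hen on lncRNAs, on the spread between hens and on the number of hens. Fragment copies made by PCR cannot be told apart, so intervals (95%, Wilson or exact) and the limit of 3 fragments for a count of 0 cover counting error only. They do not cover the division of fragments between transcripts that share exons.

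Groups came from the sample titles. Described singly are the 2 lncRNAs of the chromosome that the study lists as differentially expressed (MSTRG.7525.1 and MSTRG.7526.1), the 6 with the highest mean FPKM, the 2 with the smallest p per direction and contrast, and those called. The other transcripts of the MSTRG.7525 locus were added after their values were seen. Members and lists were chosen with earlier results of these data known. Alternatives were median-ratio factors, no filter or 0.5 FPKM, limma 3.58.1 on the log2 scale (0.1 or 1 added to the FPKM), DESeq2 1.42.0, FPKM library totals, counts summed per locus, the prefix as a covariate and leaving out each hen. Each fertility group alone and counts summed per assembled gene were chosen after seeing the data. Python 3.11.15 with scipy 1.17.1 did the rest. No sequence is printed, since no sequence of this build was used here.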

Additional observations from a re-analysis of the deposited data

Results flagged for a closer look

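Single hens stood apart from the rest of their prefix or fertility group at 4 of the lncRNAs. Of 44 groups of hens checked in FPKM, 5 had a highest or lowest hen beyond the 95% limit of Dixon's test, where chance gives about 1 in 20. MSTRG.7438.1 was at 14.5 FPKM in JF64, the highest of the 6 JF hens. NONGGAT003016.2 was at 1.90 FPKM in the same hen, the highest of the 7 long-DF hens. JH49 was the highest of the 8 JH hens for NONGGAT003015.2, at 1.75 FPKM, and for NONGGAT003017.2, at 1.14 FPKM. JF21 was the highest of the 6 JF hens for NONGGAT003015.2, at 1.48 FPKM. The values of NONGGAT003015.2 and NONGGAT003017.2 in these hens rest on 2 or 3 fragments each. For NONGGAT003017.2 every other JH hen was at 0, so JH49 was flagged by construction. A further signal lay outside the tests: MSTRG.7525.3, which did not pass the filter, had 17 fragments in JF56 and at most 1 in any other hen.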

How the results depend on the processing

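No paired analysis was possible because the hen numbers do not pair hens across groups. The comparison of long-DF with short-DF hens called no chromosome 16 lncRNA under any alternative run, over all hens or within a prefix, and neither did the difference between prefixes. Calls were rare over the whole table too. The most in any such run were 2 of 6887 over all hens, 7 within JH hens, 28 within JF hens and 4 for the difference between prefixes. For JH against JF, the 3 calls became 5 of 14 with limma and a pseudocount of 0.1 (193 of 6887 over all lncRNAs), 4 with DESeq2 (202 of 6865) and with FPKM library totals (199 of 6887), 2 with limma and a pseudocount of 1, 2 of 13 with an FPKM of at least 0.5, where MSTRG.7525.1 is no longer tested, 0 of 7 with counts summed over a whole locus (148 of 5262), and 1 each within long-DF or short-DF hens alone. Leaving out 1 hen gave 3 to 4 calls (157 to 198 of 6887 over all lncRNAs). Over all lncRNAs, the 189 calls of 6887 became 119 of 4734 with an FPKM of at least 0.5. They became 22 of 6887 with limma and a pseudocount of 1, 34 within long-DF hens and 76 within short-DF hens. Summing the 5 overlapping transcripts from MSTRG.7525.1 to MSTRG.7527.1, whose fold changes had both signs, gave a log2 fold change of -0.83 for JH over JF (adjusted p = 0.228 in edgeR), which ends the call of MSTRG.7525.1 and turns the sign of MSTRG.7526.1. For NONGGAT003017.2 limma with a pseudocount of 1 gave -1.10 and the summed locus -1.50, under the fold threshold. NONGGAT003012.2 passed that threshold at 2.52 with limma and 0.1 and at 2.01 with FPKM library totals, and without JF61 or JF40 at 2.09 or 2.25. The sign for long-DF over short-DF of MSTRG.7525.1, with no call, turned to -0.48 and -0.087 with limma (pseudocount 0.1 and 1), -0.025 with FPKM library totals and -0.12 with the prefix as a covariate. Leaving out 1 hen gave -0.41 to 0.51, and for MSTRG.7450.5 -0.19 to 0.10. Summed over its locus, MSTRG.7450.8 turned to -0.15 for JH over JF and to -0.0014 for long-DF over short-DF. MSTRG.7438.1 turned to -0.25 for JH over JF within long-DF hens, and leaving out 1 hen gave -0.065 (without JH109) to 0.48, with -0.0096 without JF21. Where no construction shows it, the cause was not tested. For members with 3 or fewer fragments in every hen no fold change is given, and what difference these depths could show was not tested.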
